A study of Mus musculus with 12 samples.

Results

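The 10 genes described here are Fos, Fosb, Jun and Junb (subunits of the AP-1 transcription factor), Egr1 (a zinc finger transcription factor), Nr4a1 (an orphan nuclear receptor), Dusp1 (a phosphatase that inactivates MAP kinases), and Ier2, Ier3 and Btg2 (early response proteins of other kinds). They were chosen by name as a textbook set, with earlier results of these data known. Each was read from its locus with an annotated Ensembl transcript, the one with the highest mean where a symbol had several. All 10 were found among 24394 annotated gene symbols, and all 10 were among the 12778 genes that reached at least 1 FPKM (fragments per kilobase of transcript, normalised to the mapped fragments) in at least 3 libraries.

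Immediate early genes are transcribed within minutes of a stimulus from factors that the cell already holds, so their induction needs no new protein. ERK, JNK and p38 kinases act on serum response factor with its cofactors, and protein kinase A and calcium signals act on CREB at cAMP response elements; the products are mostly transcription factors, feedback phosphatases and short-lived regulators, and their messages decay fast. In the gut wall, Fos is widely used to mark enteric neurons and glia that were recently active.

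The study asked how DNBS colitis and GR159897, an antagonist of the neurokinin 2 receptor, alter the RNA that is bound to tagged ribosomes of enteric glia; all mice were C57BL/6. All 12 mice, 7 males and 5 females, carried Sox10::CreERT2+/- with the Rpl22tm1.1Psam/J allele, and ate chow with tamoxifen at 400 mg/kg for 2 weeks and then plain chow for 1 week, so an HA-tagged ribosomal protein was made where the Sox10 promoter drives Cre. Ribosomes were pulled down by the tag from myenteric plexus of the distal colon 48 hours after an enema, and 4 groups of 3 libraries were made. DNBS_GR159897 mice received an enema of 0.1 ml with 5 mg of DNBS (dinitrobenzene sulfonic acid, which causes colitis) in 50% ethanol, and GR159897 at 0.5 mg/kg in 0.1% DMSO, injected daily over 3 days from 24 hours before the enema. DNBS_Vehicle mice received the same DNBS enema with 0.1% DMSO alone. Saline_GR159897 mice received 0.1 ml of saline with GR159897, and Saline_Vehicle mice received saline with 0.1% DMSO. No ethanol is listed in the saline enema, so effects of DNBS and of ethanol cannot be told apart. Sox10 also drives Cre in other neural crest derivatives, and no age of the mice is given in the labels.

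The sum of FPKM over all loci ran from 266932 to 488723 per library, and the depth in reads is unknown. Enteric glial markers (8 of 10 listed were matched) summed to 10.4 to 429 FPKM in DNBS_GR159897 libraries, 375 to 801 in DNBS_Vehicle and 599 to 929 in Saline_GR159897. In Saline_Vehicle they summed to 279 to 584 without Gfap, which was blank there, so these sums are not like for like with the other groups. Foxd3 was listed at 0 throughout both saline groups. DNBS_GR159897 replicate 1 stood apart: it held the 10.4 FPKM of glial markers, 968 FPKM of 8 epithelial markers against 0.43 to 23.2 in the other libraries, and 22.6% of its FPKM in annotated loci. Smooth muscle markers (6 of 6) summed to 292 to 3870 FPKM in DNBS_GR159897, 2297 to 6710 in DNBS_Vehicle, 1709 to 3090 in Saline_GR159897 and 3264 to 4288 in Saline_Vehicle, so smooth muscle RNA was present beside the glial RNA that the tag selects. The main results that use the DNBS_GR159897 libraries are therefore also given without replicate 1.

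**Figure D1:**
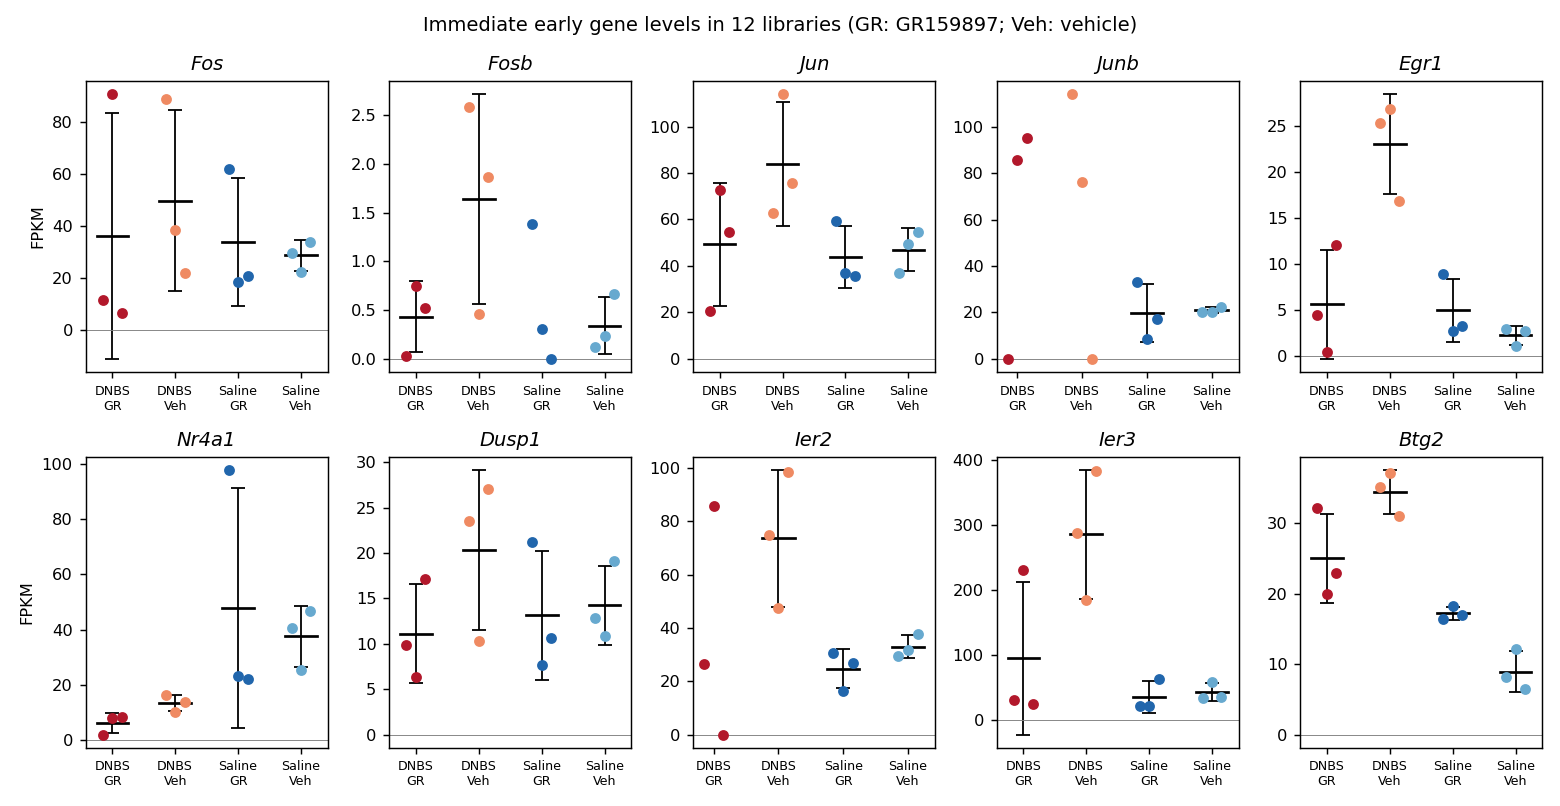
Level of each of the 10 immediate early genes in every library (FPKM, linear axes that differ between genes), by group, with 1 point per library. Lines and bars give the mean and SD of 3 libraries, and are left out where a library is listed at 0. Nr4a1 lies lower and Btg2 higher in all 6 DNBS libraries than in all 6 saline libraries.

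Per length of transcript, the members covered a wide range of levels. In Saline_Vehicle libraries Jun averaged 47.0 ± 9.13 FPKM, Ier3 42.4 ± 13.9, Nr4a1 37.6 ± 10.98, Ier2 33.0 ± 4.30, Fos 28.7 ± 5.93, Junb 21.0 ± 1.28, Dusp1 14.2 ± 4.33, Btg2 8.93 ± 2.90, Egr1 2.27 ± 1.03 and Fosb 0.34 ± 0.29 (SD, n = 3). Neighbours in that order from Jun down to Junb overlapped between libraries, as did Dusp1 and Btg2, while Junb lay wholly above Dusp1, Btg2 above Egr1, and Egr1 above Fosb. Over the 12 libraries the median percentile among the tested genes was 94.6 for Ier3, 93.6 for Jun and 12.5 for Fosb. In DNBS_Vehicle libraries Ier3 came first at 286 ± 99.5 FPKM (SD, n = 3), and its lowest library, at 185 FPKM, was above every other member's highest.

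Across both drug arms, Nr4a1 fell and Btg2 rose after DNBS, and these were the only members to pass the test (2 of 10, where 9.6% of all genes passed). Nr4a1, also called Nur77, is an orphan receptor whose transcription is induced by growth factors, calcium and cAMP. Btg2 restrains proliferation and recruits a deadenylase that shortens messenger RNA tails. In GRCm38, Nr4a1 lies at chr15:101254269-101274795 on the plus strand and Btg2 at chr1:134075170-134079120 on the minus strand. The promoters of both are shown because they are the members that changed; they are RefSeq windows of 250 bases before and 50 after the start (GRCm38.p6), given 5′ to 3′ on the gene's strand, at chr15:101266596-101266895 for Nr4a1 (plus strand) and chr1:134079106-134079405 for Btg2 (minus strand). Capitals mark the cAMP response element TGACGTCA and its shorter core motif, TGACG or the reverse complement CGTCA.
Nr4a1: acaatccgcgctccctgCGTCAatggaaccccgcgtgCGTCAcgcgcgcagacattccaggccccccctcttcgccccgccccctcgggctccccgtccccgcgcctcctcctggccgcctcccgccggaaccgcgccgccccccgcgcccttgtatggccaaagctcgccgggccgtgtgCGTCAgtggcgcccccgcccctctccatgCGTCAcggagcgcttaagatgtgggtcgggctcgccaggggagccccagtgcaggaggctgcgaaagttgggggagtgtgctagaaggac
Btg2: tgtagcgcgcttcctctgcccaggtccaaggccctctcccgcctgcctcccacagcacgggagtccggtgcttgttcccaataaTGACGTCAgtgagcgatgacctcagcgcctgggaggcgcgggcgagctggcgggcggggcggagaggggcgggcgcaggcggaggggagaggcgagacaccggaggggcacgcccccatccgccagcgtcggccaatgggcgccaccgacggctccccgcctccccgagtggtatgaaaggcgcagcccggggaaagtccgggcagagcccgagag
The Nr4a1 window lies wholly inside the gene span given above, so its RefSeq start is not the outermost annotated start of the gene. It holds 4 separate core motifs, all read as CGTCA, starting 233, 213, 69 and 40 bases before that RefSeq start. Btg2 holds 1 full element that starts 166 bases before the RefSeq start of its own window.

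Nr4a1 was at 2.03, 8.14 and 8.36 FPKM in DNBS_GR159897 libraries and 16.25, 10.33 and 13.86 in DNBS_Vehicle, against 97.74, 23.16 and 22.17 in Saline_GR159897 and 40.55, 25.39 and 46.74 in Saline_Vehicle. All 6 DNBS libraries were below all 6 saline libraries, as in 4.29% of genes tested. Averaged over both drug arms, Nr4a1 fell by 1.98 on the log2(FPKM + 1) scale (SE 0.44, limma adjusted p = 0.0202). Of all genes, 6.83% were called lower and 2.76% higher in that comparison. Within arms the change was -2.58 under GR159897 (SE 0.62, adjusted p = 0.06; -2.04 without DNBS_GR159897 replicate 1, adjusted p = 0.117) and -1.39 under vehicle (SE 0.62, adjusted p = 0.374). Without Saline_Vehicle replicate 1 or replicate 3 the averaged call was lost, at adjusted p = 0.0512 and 0.0572, as it was with no filter on low values (0.0509), and without DNBS_GR159897 replicate 1 it passed at -1.72 (adjusted p = 0.0207). Fewer cells of a type and less RNA per cell cannot be told apart in these bulk libraries.

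Btg2 was at 32.12, 19.92 and 22.97 FPKM in DNBS_GR159897 libraries and 35.19, 37.11 and 31.05 in DNBS_Vehicle, against 16.37, 18.17 and 17.00 in Saline_GR159897 and 8.15, 12.14 and 6.50 in Saline_Vehicle. All 6 DNBS libraries were above all 6 saline libraries, as in 1.74% of genes tested. Averaged over both arms Btg2 rose by 1.18 (SE 0.28, limma adjusted p = 0.0244). The difference was 1.87 under vehicle (SE 0.39, adjusted p = 0.074) and 0.49 under GR159897 (adjusted p = 0.468; 0.30 without DNBS_GR159897 replicate 1). The averaged call was lost without Saline_Vehicle replicate 1 (adjusted p = 0.063), Saline_Vehicle replicate 3 (0.0729), DNBS_Vehicle replicate 1 (0.0504), Saline_GR159897 replicate 1 (0.0557) or Saline_GR159897 replicate 3 (0.0547). Without DNBS_GR159897 replicate 1 it was 1.09 (adjusted p = 0.0166), and the vehicle-arm change, the same libraries with another estimate of the spread, then passed at adjusted p = 0.019. The difference between the arms was -1.38, with adjusted p = 0.957 for the interaction.

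Neutrophil markers were higher in 5 of 6 DNBS libraries than in any saline library. The 6 of 6 listed summed to 41.3 to 210 FPKM in DNBS_GR159897 libraries and 9.68 to 543 in DNBS_Vehicle, against 0.35 to 12.1 in Saline_GR159897 and 0.37 to 2.03 in Saline_Vehicle, where Cxcr2 was listed at 0 in both saline groups and Ly6g in Saline_GR159897. Markers of interstitial cells of Cajal (3 of 3) summed to 5.28 to 16.5 FPKM in DNBS_GR159897 and 14.2 to 17.6 in DNBS_Vehicle, against 20.8 to 29.7 in Saline_GR159897 and 20.6 to 32.9 in Saline_Vehicle, lower in all 6 DNBS libraries. Macrophage markers (7 of 7) summed to 20.6 to 161 FPKM in DNBS_GR159897 and 47.8 to 247 in DNBS_Vehicle, against 41.4 to 54.7 in Saline_GR159897 and 62.9 to 107 in Saline_Vehicle. Of the markers tested in the average over both arms, Cd68 and Mrc1 of 7 macrophage markers and S100a8 and S100a9 of 3 neutrophil markers passed as higher with DNBS, and Sox10 and Erbb3 of 6 glial markers as lower. The part of these cells in the changes of the members was not tested.

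Ier3 and Egr1 had the largest differences under vehicle, but neither passed the test. Ier3 encodes a stress-induced regulator of cell survival and ERK signalling, and was at 30.08, 230.73 and 24.06 FPKM in DNBS_GR159897 libraries and 287.76, 185.24 and 384.15 in DNBS_Vehicle, against 21.10, 21.75 and 63.40 in Saline_GR159897 and 34.06, 58.52 and 34.70 in Saline_Vehicle. All 3 DNBS_Vehicle libraries were above all 3 Saline_Vehicle libraries, whereas only replicate 2 of DNBS_GR159897 exceeded the saline range. The difference was 2.71 under vehicle (SE 0.78, limma adjusted p = 0.186), 0.83 under GR159897 (adjusted p = 0.546; 1.26 without DNBS_GR159897 replicate 1) and 1.77 averaged (SE 0.55, adjusted p = 0.0611). The averaged value passed at 1.98 without DNBS_GR159897 replicate 1 (adjusted p = 0.0405), at 2.06 without its replicate 3 (0.0311), and when libraries were scaled to their annotated sum or by the median ratio of genes, at 1.98 and 2.01 (0.0367 and 0.0351).

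The promoter of Ier3, at chr17:35821463-35821762 on the plus strand (RefSeq, GRCm38.p6), is shown because this gene had the highest level after DNBS and its window holds none of the 5 motifs searched, so it has no capitals; the Fos window, at chr12:85473640-85473939 on the plus strand, is shown beside it for contrast, with core motifs and TATAAA in capitals.
Ier3: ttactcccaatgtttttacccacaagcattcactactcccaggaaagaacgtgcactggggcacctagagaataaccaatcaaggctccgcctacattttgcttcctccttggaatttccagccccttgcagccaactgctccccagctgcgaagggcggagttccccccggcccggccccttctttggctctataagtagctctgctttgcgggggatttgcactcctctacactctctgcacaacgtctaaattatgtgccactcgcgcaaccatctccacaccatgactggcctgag
Fos: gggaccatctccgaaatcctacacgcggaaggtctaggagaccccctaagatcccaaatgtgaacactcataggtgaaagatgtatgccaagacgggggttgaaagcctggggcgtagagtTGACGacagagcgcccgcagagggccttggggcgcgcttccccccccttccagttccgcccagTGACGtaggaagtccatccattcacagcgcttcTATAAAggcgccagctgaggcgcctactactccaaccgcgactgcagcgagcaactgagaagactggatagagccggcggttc
Fos holds core motifs starting 129 and 66 bases before the first transcribed base and TATAAA starting 33 bases before it.

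Egr1, at chr18:34859823-34864984 on the plus strand, was at 4.46, 0.42 and 12.07 FPKM in DNBS_GR159897 libraries and 25.32, 26.85 and 16.81 in DNBS_Vehicle, against 8.95, 2.71 and 3.34 in Saline_GR159897 and 2.93, 1.08 and 2.79 in Saline_Vehicle. DNBS_Vehicle stood above each of the other 3 groups without overlap, and DNBS_GR159897 overlapped Saline_GR159897. The difference was 2.91 under vehicle (SE 0.68, limma adjusted p = 0.105), -0.22 under GR159897 (adjusted p = 0.867; -0.33 without DNBS_GR159897 replicate 1) and 1.34 averaged (SE 0.48, adjusted p = 0.0916). Between the DNBS groups it was -2.34 (SE 0.68, adjusted p = 0.543; -2.45 without DNBS_GR159897 replicate 1). The averaged value passed at 1.77 without DNBS_GR159897 replicate 2 (adjusted p = 0.0194).

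Among the AP-1 subunits no difference passed in any comparison. Fos was at 11.45, 90.86 and 6.32 FPKM in DNBS_GR159897 libraries and 88.95, 38.65 and 21.91 in DNBS_Vehicle, against 62.16, 18.50 and 20.66 in Saline_GR159897 and 29.71, 22.29 and 34.02 in Saline_Vehicle. All groups overlapped. In each DNBS group and in Saline_GR159897, 1 library stood far above the others of its group. Means were 36.2 ± 47.4 FPKM in DNBS_GR159897, 49.8 ± 34.9 in DNBS_Vehicle and 33.8 ± 24.6 in Saline_GR159897 (SD, n = 3). The difference was 0.57 under vehicle (SE 0.85, limma adjusted p = 0.846) and -0.56 under GR159897 (adjusted p = 0.722; -0.20 without DNBS_GR159897 replicate 1).

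Jun was at 20.56, 72.71 and 54.73 FPKM in DNBS_GR159897 libraries and 62.66, 113.88 and 75.49 in DNBS_Vehicle, against 59.39, 36.77 and 35.79 in Saline_GR159897 and 36.96, 49.28 and 54.80 in Saline_Vehicle. DNBS_Vehicle lay above Saline_Vehicle without overlap, at a difference of 0.80 (SE 0.53, limma adjusted p = 0.575), while DNBS_GR159897 overlapped Saline_GR159897 at 0.03 (0.55 without DNBS_GR159897 replicate 1). Exons of Jun overlap the antisense gene Junos, and no source used here states whether reads were counted by strand.

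Fosb was the lowest member, at 0.03, 0.75 and 0.52 FPKM in DNBS_GR159897 libraries and 2.58, 0.46 and 1.87 in DNBS_Vehicle, against 1.38, 0.31 and 0 in Saline_GR159897 and 0.12, 0.23 and 0.67 in Saline_Vehicle. The groups overlapped, and the log2(FPKM + 1) scale compresses changes at such levels (0.90 under vehicle, SE 0.43, limma adjusted p = 0.405).

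Junb was listed at 0 in 2 DNBS libraries beside high values in the rest. It was at 0, 85.93 and 95.33 FPKM in DNBS_GR159897 libraries and 114.09, 76.39 and 0 in DNBS_Vehicle, against 33.18, 8.74 and 17.37 in Saline_GR159897 and 20.28, 20.28 and 22.49 in Saline_Vehicle. The 4 DNBS values above 0 were all above every saline library. A listed 0 can be a failed estimate or a true absence, which cannot be told apart here. Of 3193 genes with a median of at least 10 FPKM, 0.376% to 2.51% were listed at 0 in any 1 library. The general transcription factor gene Tbp was listed at 0 in Saline_GR159897 replicate 3. Elsewhere it was at only 0.03 to 1.71 FPKM, so its 0 says little about Junb. Exons of Junb overlap Prdx2 on the opposite strand, which was at 23.4 FPKM in DNBS_GR159897 replicate 1 and 95.48 FPKM in DNBS_Vehicle replicate 3, the libraries where Junb was listed at 0. With the zeros as deposited the averaged difference was 0.03 (limma adjusted p = 0.991). With zeros of well-expressed genes set to missing it was 2.21 (limma adjusted p = 0.0123), over the 10 libraries left. That alternative was chosen after seeing the data. It removed only the low DNBS values of Junb, so it could only raise the difference, and its p is no evidence of a rise.

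Dusp1, the phosphatase, was at 9.90, 6.38 and 17.09 FPKM in DNBS_GR159897 libraries and 23.56, 10.32 and 27.09 in DNBS_Vehicle, against 21.17, 7.63 and 10.67 in Saline_GR159897 and 12.79, 10.82 and 19.11 in Saline_Vehicle. The groups overlapped in both arms, with a difference of 0.42 under vehicle (SE 0.52, limma adjusted p = 0.806) and -0.21 under GR159897 (-0.18 without DNBS_GR159897 replicate 1). Its exons overlap Ergic1 on the opposite strand.

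Ier2, a nuclear protein of the early growth response, was at 26.60, 85.77 and 0 FPKM in DNBS_GR159897 libraries and 75.03, 47.39 and 98.59 in DNBS_Vehicle, against 30.51, 16.46 and 26.95 in Saline_GR159897 and 29.49, 31.75 and 37.81 in Saline_Vehicle. DNBS_Vehicle was above Saline_Vehicle without overlap, at a difference of 1.08 (SE 1.17, limma adjusted p = 0.767), and the large SE includes the 0 of DNBS_GR159897 replicate 3. With that 0 set to missing, an alternative chosen after seeing the data, the difference under GR159897 was 0.98 (limma adjusted p = 0.336). With the 0 as deposited it was -0.89 (-1.42 without DNBS_GR159897 replicate 1).

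**Figure D2:**
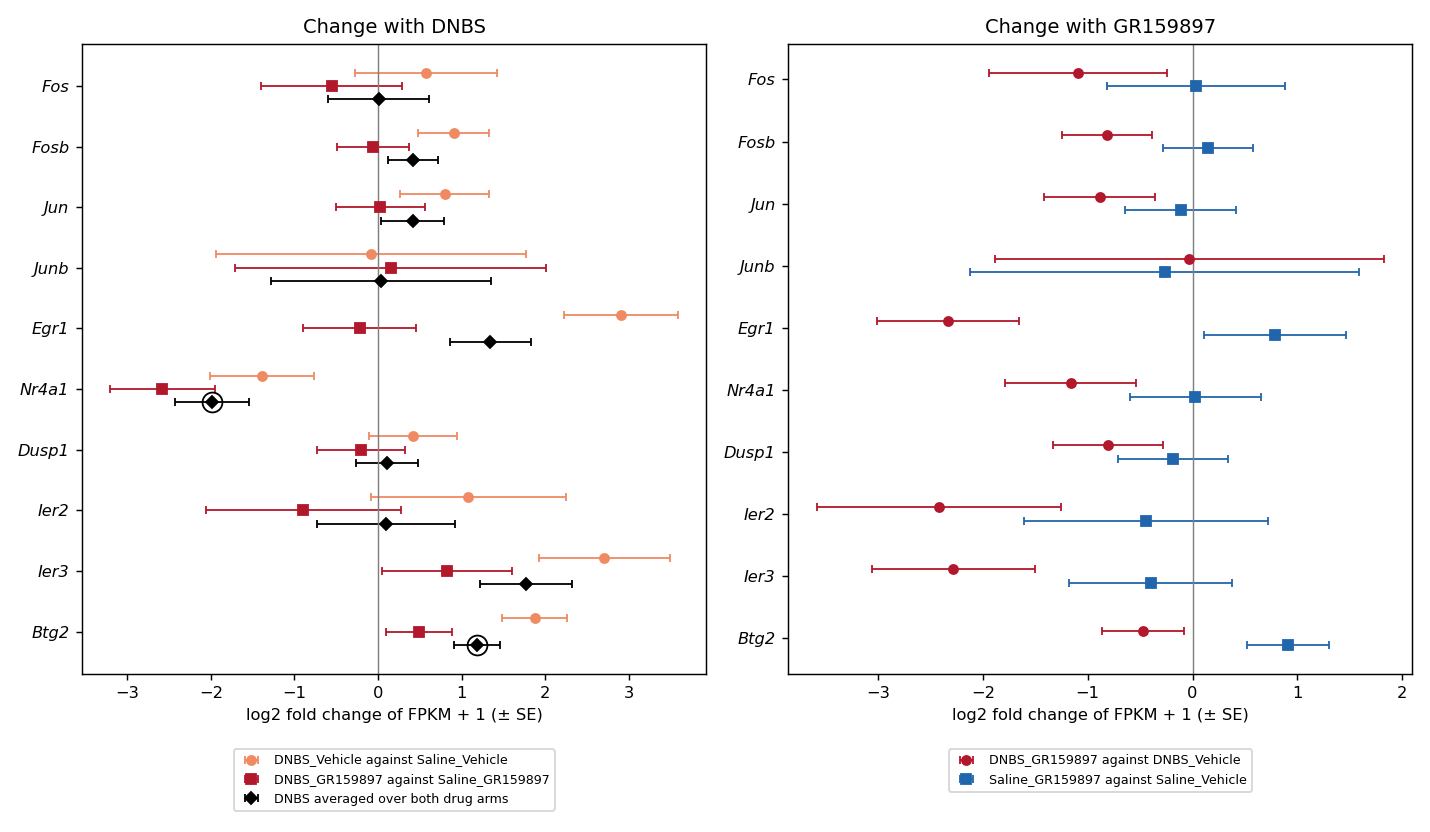
Differences of the 10 members on the log2(FPKM + 1) scale with SE, for DNBS against saline and for GR159897 against vehicle. Circled points passed an adjusted p of 0.05, which were Nr4a1 and Btg2 in the average over both drug arms.

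Counted together under vehicle, 8 members had higher values in DNBS_Vehicle and 2 lower, with a median of 0.85 against -0.11 over all genes, of which 43.1% were higher. By limma 0 of 10 passed, against 0.321% of genes, and 4 of 10 had an unadjusted p under 0.05, as did 1612 of 12777 genes. Jun, Egr1, Ier2, Ier3 and Btg2 lay wholly above Saline_Vehicle, 5 of 10 where 9.53% of genes did, and Nr4a1 wholly below, where 14.9% of genes did. Fosb, among the 8 higher members, reached 1 FPKM only in DNBS_Vehicle replicates 1 and 3 and Saline_GR159897 replicate 1. It therefore needed DNBS libraries to pass the filter. With at least 5 FPKM required, which left Fosb out, 7 members were higher and 2 lower. The median was then 0.80 against -0.17 over all genes.

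Under GR159897, 4 members were higher and 6 lower in DNBS_GR159897, with a median of -0.13 against -0.27 over all genes (-0.01 against -0.13 without replicate 1). By limma 0 of 10 passed, against 1.38% of genes, and 1 of 10 had an unadjusted p under 0.05, as did 2900 of 12778 genes. Btg2 lay wholly above Saline_GR159897, as 6.67% of genes did, and Nr4a1 wholly below, as 17.6% did.

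In the average over both drug arms 2 of 10 passed, against 9.6% of genes, and the 2 went in opposite directions. Scaling the libraries by their annotated sum or by median ratio moved the all-gene median under GR159897 to 0.04 and 0.01, and the split of averaged calls to 404 higher and 612 lower or 455 higher and 513 lower, against 353 higher and 873 lower as deposited. Under these scalings 6 members were higher and 4 lower under GR159897, with a median of 0.18 and 0.15.

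The effect of GR159897 was asked within each enema. Between the DNBS groups all 10 members had lower values in DNBS_GR159897 than in DNBS_Vehicle, from -0.03 for Junb to -2.42 for Ier2, with a median of -0.99 against -0.21 over all genes, of which 62.8% were lower. Egr1 and Nr4a1 lay wholly below DNBS_Vehicle, as 6.89% of genes did. No member passed by limma (0 of 10, against 0.0% of genes), 2 of 10 had an unadjusted p under 0.05, and 1039 genes did in all. Without DNBS_GR159897 replicate 1, 9 were lower and the median was -0.70 against -0.06. Scaled to the annotated sum 8 were lower, with a median of -0.66 against 0.11, and by median ratio 9 were lower, with a median of -0.74 against 0.03. These changes share the DNBS_GR159897 libraries, whose markers of glia, epithelium and smooth muscle differ as given above; their part was not tested.

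Between the saline groups 5 members were higher and 5 lower in Saline_GR159897, with a median of -0.04 against -0.03 over all genes. Btg2 lay wholly above Saline_Vehicle, as 3.04% of genes did, at a difference of 0.91 with unadjusted p = 0.0368 and limma adjusted p = 1. By limma 0 of 10 passed, against 0.0% of genes, with 1 of 10 members and 217 genes at an unadjusted p under 0.05.

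The interaction, which is the DNBS change under GR159897 minus that under vehicle, was negative for 9 of 10 members, with a median of -1.16 against -0.18 over all genes. Without DNBS_GR159897 replicate 1 the median was -0.76 against -0.04, scaled to the annotated sum it was -0.82 against 0.15, and by median ratio -0.91 against 0.04. Egr1 had the lowest value at -3.13 (SE 0.96, limma adjusted p = 0.957), and 0 of 10 passed, against 0.0% of genes and 458 genes at an unadjusted p under 0.05. Averaged over both enemas, 9 members were lower with GR159897, with a median of -0.52 against -0.12 over all genes (8 members and -0.33 against -0.04 without DNBS_GR159897 replicate 1), and 0 of 10 passed, with Ier3 at -1.34 (unadjusted p = 0.0305, adjusted p = 0.888).

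Other immediate early genes were read from a list of 49, of which 44 were tested. Among the 44, Dusp2 and Sik1 reached 1 FPKM only in DNBS libraries, and Egr2, Fosl1 and Myc needed DNBS libraries to pass the filter. Counts of higher and lower genes in this list are therefore descriptions. Under vehicle 33 were higher in DNBS_Vehicle and 11 lower (median 0.72), where 43.1% of all genes were higher (median -0.11), and 2 rose, where 0.321% of all genes were called. Csrnp1, a nuclear transcription factor, was at 20.88, 19.73 and 18.12 FPKM in DNBS_Vehicle against 0.83, 1.68 and 1.32 in Saline_Vehicle, a rise of 3.19 (SE 0.54, limma adjusted p = 0.031). Dusp5, a nuclear phosphatase specific for ERK, was at 5.66, 20.80 and 16.13 FPKM in DNBS_Vehicle against 1.95, 1.25 and 0.33 in Saline_Vehicle, a rise of 2.71 (SE 0.46, adjusted p = 0.031). Both sets of values lie apart without overlap. Leaving out any 1 of the 6 compared libraries left 0 calls in the list, except that Dusp5 passed without DNBS_Vehicle replicate 1. Scaled to the annotated sum Dusp5 missed the threshold (2.64, adjusted p = 0.0724).

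Under GR159897, 25 were higher and 19 lower (median 0.34; 30 and 14 with a median of 0.73 without DNBS_GR159897 replicate 1), where 37.6% of all genes were higher (median -0.27). Dusp6 fell, the 1 gene of the list called, where 1.38% of all genes were called. Dusp6, the cytoplasmic phosphatase specific for ERK, was at 6.39, 6.92 and 1.34 FPKM in DNBS_GR159897 and 17.96, 16.11 and 11.23 in DNBS_Vehicle, against 33.38, 25.37 and 18.60 in Saline_GR159897 and 25.12, 25.05 and 27.42 in Saline_Vehicle. Its change was -2.34 under GR159897 (SE 0.49, limma adjusted p = 0.0409) and -0.76 under vehicle (adjusted p = 0.565), and the first became -2.60 with adjusted p = 0.0547 without DNBS_GR159897 replicate 1, and it missed the threshold under both scalings (0.107 and 0.0849).

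Averaged over both arms 11 of the 44 rose and Dusp6 fell (-1.55, limma adjusted p = 0.0213; 0.0631 and 0.0512 under the 2 scalings). The 11, with their log2 differences, were Dusp5 (2.19), Csrnp1 (2.12), Dusp2, Plk2 (1.83), Trib1 (2.46), Sik1, Gadd45g (2.24), Fosl1 (1.49), Ier5 (1.78), Myc (1.22) and Cebpd (2.07), against 2.76% of genes called higher. Dusp2 was listed at 0 in 5 of 6 saline libraries and Sik1 was at 0 to 0.25 FPKM there, so no size is given for either. Both reached 1 FPKM only in DNBS libraries, and so passed the filter only through the group where they are high. Fosl1 and Myc also needed DNBS libraries to pass it. The count of 11 is therefore a description. They include a further AP-1 subunit, Fosl1, kinases of feedback loops, Plk2 and Sik1, and the pseudokinase Trib1. Csrnp1, Dusp2, Dusp5, Plk2 and Trib1 were called in each of the 12 fits that left out 1 library, and the number called higher ran from 5 to 14. For Dusp2, which entered only through the DNBS libraries, these calls are a description. Between the DNBS groups 8 were higher in DNBS_GR159897 and 36 lower (median -0.53), which was 17 and 27 (median -0.19) without DNBS_GR159897 replicate 1, 17 and 27 (median -0.13) scaled to the annotated sum, and 15 and 29 (median -0.24) by median ratio. Between the saline groups 23 were higher and 21 lower; 0 of 44 passed in either.

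**Figure D3:**
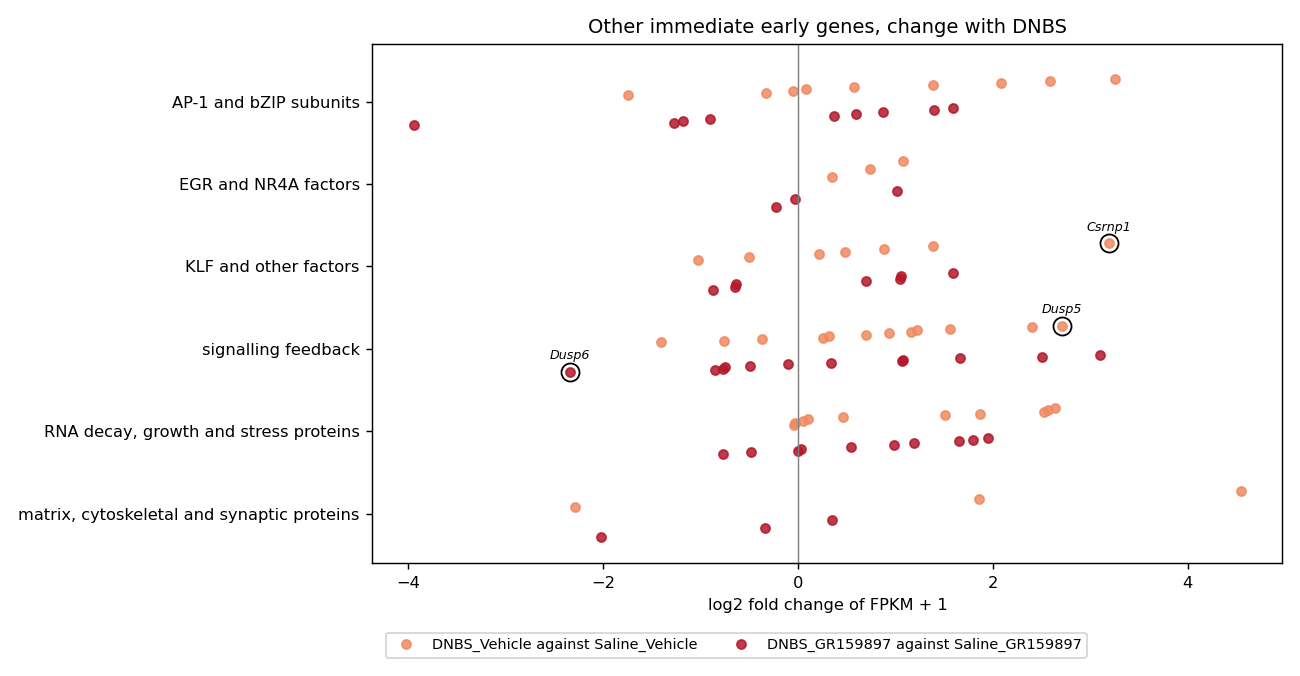
Differences between DNBS and saline of the 44 other immediate early genes on the log2(FPKM + 1) scale, 1 point per gene and drug arm, by role. Circled points passed an adjusted p of 0.05, which were Csrnp1 and Dusp5 under vehicle and Dusp6 under GR159897.

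Kinases and factors that act before the immediate early genes were read from a list of 18, of which 16 were tested. By limma none passed under vehicle (7 higher, 9 lower), where 0.321% of all genes did, or under GR159897 (8 and 8), where 1.38% did. Of all genes, 43.1% and 37.6% were higher. An unadjusted p under 0.05 was found for 1 and 4 of the 16, and for 1612 of 12777 and 2900 of 12778 genes.

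Promoter windows were searched for 8 of the 10 members. Ier2 had no entry, and member windows on chromosome 18, where Egr1 lies, were left out of the search. On either strand the core motif TGACG was in 6 of 8 windows (Fos, Fosb, Junb, Nr4a1, Dusp1 and Btg2), against 20.8% of 32851 mouse windows of the same length, and the full element TGACGTCA was in 2 (Dusp1 and Btg2), against 1.79%. The serum response element core known as the CArG box was in 0 of 8, against 1.63%, the AP-1 site TGANTCA in 0 of 8, against 7.81%, and TATAAA in 2 (Fos and Junb), against 13.6%. The windows reach only 250 bases before the start, so sites further upstream were not searched. Each window takes 1 RefSeq start, and those of Nr4a1 and Dusp1 lie wholly inside the GENCODE span of the gene. A count of 0 does not show that these genes lack a motif. The full element contains a core motif on each strand. A match describes letters only, and both members that changed, in opposite directions, hold the core motif.

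**Figure D4:**
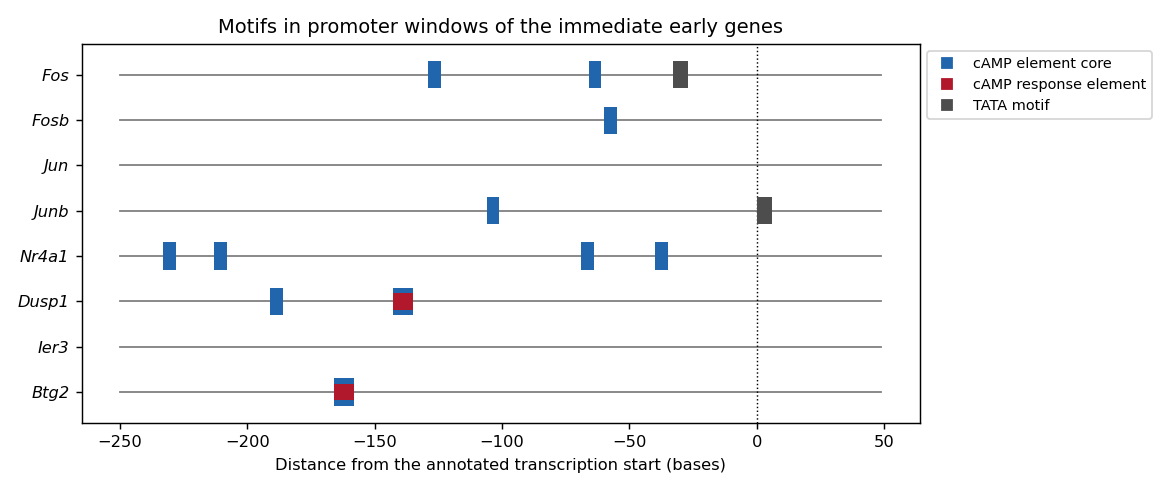
Positions of the motifs in the 8 promoter windows, 1 line per gene, in bases from the RefSeq start of each window (dotted line). Narrow red boxes over blue ones are full elements with the core motifs they contain. Nr4a1 holds 4 core motifs, Dusp1 and Btg2 hold the full element, and Ier3 and Jun hold none of the motifs.

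Members varied together only in part. Pearson's r was taken over the 12 libraries, which share group and library effects. The highest of any pair of members was between Fos and Ier2, at 0.73 (0.68 for deviations from the group means). That value includes DNBS_GR159897 replicate 3, where Ier2 was listed at 0 and Fos was at 6.32 FPKM. The lowest was between Nr4a1 and Btg2, the members called in opposite directions, at -0.66 (-0.64 for deviations). The genes most like the mean of the 10 members were Rnf19a (r = 0.87), Adam9 (0.85), Ecm1;Mir7014 (0.85), Rrp9 (0.84) and Ykt6 (0.83), picked as the highest of all genes tested, so the values are a description.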

How the data were processed

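The authors' deposited values are FPKM, 1 per locus and library. Without saying which step each served, the submitters' processing notes list StringTie 1.3, HISAT2 2.0, FastQC 0.10.1 and cutadapt 1.10. For the genome build and the handling of strand nothing is given in the sources used here, and depth is unknown, so no counting interval can be given. Per the labels' protocols, complementary DNA was made with the SMART-seq v4 kit.

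Values were analysed as log2(FPKM + 1), which understates changes of low genes, for the 12778 genes that reached 1 FPKM in 3 or more libraries, out of 99547 loci. 1 linear model with a coefficient per group was fitted over all 12 libraries with limma 3.58.1 in R 4.3.3 (trended, robust prior, no block, no sex term), with two-sided tests and Benjamini-Hochberg adjustment over all genes at a threshold of 0.05; it was tested on simulated data. Gfap had blank values in Saline_Vehicle and was left out where that group is used. Tables and plots were made with Python 3.11.15, pandas 2.3.3, numpy 2.4.6 and matplotlib 3.10.9. p-values measure the spread between these libraries.

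The 10 members, the wider lists and the averaged comparisons were chosen with earlier results of these data known. All members are named; of the other immediate early genes, those with the 5 smallest p-values per comparison could be named, and a few more were named because they passed. Positions come from GENCODE (GRCm38) through transcript identifiers, and promoters from RefSeq (GRCm38.p6). Alternatives were other pseudocounts, filters and scalings, a sex term, library weights, a plain prior, summed loci, fits of the compared groups alone, a replicate block and leaving out each library. Replicate numbers gave no clear sign of pairing: of 18 same-number pairs, 2 had deviations that correlated above 0.1. The r of same-number pairs ran from -0.09 to 0.20, and that of other pairs from -0.27 to 0.22. With 3 libraries a group this check cannot exclude pairing. For the list of upstream kinases and factors, the average over both drug arms is not reported here.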

Additional observations from a re-analysis of the deposited data

Results flagged for a closer look

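Several member symbols have a further locus in the table that entered no comparison as reported, only the alternative that sums the loci of a symbol, with a signal in DNBS libraries above its level in saline libraries. A second, unannotated Btg2 locus was at 4.46 FPKM in DNBS_GR159897 replicate 1 and listed at 0 in the other 11 libraries. An unannotated Dusp1 locus was at 1.29 and 1.06 FPKM in DNBS_GR159897 replicates 1 and 2 and at 2.02 FPKM in DNBS_Vehicle replicate 1, and listed at 0 in all saline libraries. An unannotated Fosb locus was at 2.14 FPKM in DNBS_GR159897 replicate 2 alone. An unannotated Ier2 locus was at 2.42 FPKM in DNBS_GR159897 replicate 2 and 1.47 FPKM in DNBS_Vehicle replicate 1. A second annotated Junb locus was at 0.36 FPKM in DNBS_GR159897 replicate 2, against at most 0.05 FPKM in saline libraries. An unannotated Nr4a1 locus was at 1.18 and 0.85 FPKM in DNBS_Vehicle replicates 1 and 3, against 0.75 FPKM in Saline_GR159897 replicate 1 as its highest saline value. A further unannotated Nr4a1 locus was listed at 0 in all DNBS libraries and was at 0.71 FPKM in Saline_GR159897 replicate 1. These are single values with no test.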

How the results depend on the processing

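The rise of Btg2 and the fall of Nr4a1 in the average over both drug arms kept their direction under every alternative run, at 1.06 to 1.41 for Btg2 and -2.16 to -1.54 for Nr4a1. Depth is unknown, 3 libraries a group leave wide errors, and listed zeros decide the values of Junb and Ier2.

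The number of members called depended most on library weights. Under vehicle, against 0 as reported, 3 were called with library weights, where 4.02% of all genes were called. It was 2 in the fit of the compared groups alone (0.861% of genes) and 1 with a plain prior (0.25%). With 1 library left out it was 0 to 1, against 0 to 1.47% of genes. Under GR159897, against 0, it was 2 with library weights, where 16.9% of all genes were called. With 1 left out it was 0 to 1, against 0.0316% to 4.78% of genes. In the average over both arms, against 2, it was 5 with library weights, where 23.6% of all genes were called. It was 1 with no filter on low values (1.82% of genes). With zeros of well-expressed genes as missing, an alternative chosen after seeing the data, it was 3 (9.84%). Ier3 also passed, as given above, when scaled to the annotated sum or by median ratio (7.97% and 7.65% of genes). With 1 left out the number of members called was 0 to 3, against 3.18% to 13.1% of genes. Between the DNBS groups it was 1 with library weights, where 0.54% of all genes were called. With the replicate number as a block, 2 members were called in the average, Btg2 and Nr4a1, where 7.72% of all genes were called. The block changed no member's call, and 5 of 12 libraries correlated best with their own number.

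Medians with library weights were 0.60 under GR159897, 0.93 in the average and -0.60 for the interaction. With 1 library left out the median between the DNBS groups ran from -1.56 to -0.70 and that of the interaction from -1.59 to -0.59.

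Some members changed direction in comparisons where they had passed no test. With library weights, Junb under vehicle was 0.26; under GR159897 Fos was 1.39, Fosb 0.44 and Ier2 1.096; between the saline groups Fos was -0.21, Fosb -0.077 and Nr4a1 -0.33; between the DNBS groups Fos was 0.34 and Junb 1.501; for GR159897 averaged over enemas Fos was 0.062 and Junb 0.58; for the interaction Fos was 0.55 and Jun 0.12. With a pseudocount of 0.1, Fosb was 0.058 and Junb -0.88 under GR159897, and Fos -0.016, Ier2 -0.43 and Junb -1.01 in the average; with 0.5, Junb was -0.14 under GR159897, and Fos -0.0058, Ier2 -0.059 and Junb -0.27 in the average. Scaled by the median ratio, Junb was 0.0053 under vehicle and 0.060 between the DNBS groups, and Dusp1 0.18 and Egr1 0.12 under GR159897. Scaled to the annotated sum, Dusp1 was 0.22 and Egr1 0.14 under GR159897, and Btg2 0.0093 and Junb 0.021 between the DNBS groups. With a sex term, Fos was -0.14 and Ier2 -0.17 in the average. With loci summed, Fosb was 0.32 under GR159897. With zeros as missing, Junb was 2.10 under vehicle and Ier2 0.98 under GR159897. The cause was not tested.

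With 1 library left out, Junb ran from -1.32 to 2.10 under vehicle. Under GR159897 the ranges were -0.54 to 0.18 for Dusp1, -0.96 to 0.64 for Egr1, -0.34 to 0.55 for Jun, -0.97 to 2.32 for Junb, -0.34 to 0.16 for Fosb, -0.19 to 1.41 for Ier3, -1.65 to 0.18 for Fos and -2.24 to 0.98 for Ier2. In the average they were -0.54 to 0.37 for Fos, -0.59 to 1.13 for Junb, -0.063 to 0.31 for Dusp1 and -0.58 to 1.03 for Ier2. Between the saline groups they were -0.51 to 0.34 for Fos, -0.66 to 0.38 for Nr4a1, -0.57 to 0.11 for Dusp1, -0.35 to 0.011 for Jun and -0.72 to 0.19 for Junb. Junb ran from -2.22 to 2.14 between the DNBS groups, -1.24 to 0.94 for GR159897 averaged over enemas and -1.95 to 2.41 for the interaction.

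Genes called of all tested, as reported, were 41 under vehicle, 176 under GR159897 and 1226 in the average. Library weights gave 514, 2154 and 3009; no filter 13, 18 and 442; a sex term 24, 25 and 800; the replicate block 18, 31 and 986; a pseudocount of 0.1 gave 21, 42 and 879. The compared groups alone gave 110 and 9, and leaving out DNBS_GR159897 replicate 1 gave 183, 45 and 1216. No value of the average or the interaction exists for the compared groups alone, and Fosb has none where at least 5 FPKM was required.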
